A study of Drosophila melanogaster with 136 samples.

Results

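The expression of 10 genes of the ecdysone response, chosen by name and read by FlyBase identifier, was followed among 17477 genes counted in each of 68 poly(A) RNA libraries of Drosophila melanogaster. They are EcR, Eip74EF, Eip75B, Eip78C, Eip93F, Hr3, Hr39, ftz-f1, br and Kr-h1, and all 10 were found in every table. Ecdysone is the steroid hormone that times insect moulting and metamorphosis. It enters cells, binds the nuclear receptor EcR with its partner usp, and switches on early regulators (br, Eip74EF, Eip75B, Eip93F) and then early-late ones (Eip78C, Hr3), which in turn set when ftz-f1 is expressed. In the embryo a single hormone pulse in mid-embryogenesis precedes head involution and the first larval cuticle.

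S2 cells are a cell line of hemocyte character derived from late embryos. They were kept in serum-containing medium, and the labels name no hormone among the agents. Their libraries form 3 sets: WT and dora clones (3 libraries each), WT and dora clones after RNAi against Ago1 or, as the control, GFP (3 each), and WT cells beside lines labelled ago1, h, kah, wgn or zfh1 (2 each). Dora is the fly ZSWIM8, the substrate receptor of a ubiquitin ligase needed when certain transcripts, called triggers, mark a miRNA for decay. Whole embryos came from fly lines labelled dora[A], dora[B] or CR43432, each with its own WT controls, at 8-12 h, 12-16 h and 16-20 h of age with 2 libraries per genotype and time. The CR43432 set had 1 library per genotype at 16-20 h and also 2 WT libraries each at 0-2 h and 2-4 h. CR43432 is a long noncoding RNA. The labels do not give the lesion of any allele or line. Clones and fly lines serve as replicates, and the titles of dora[A] and dora[B] give only a replicate number. SE and p rest on the spread between libraries of a group, estimated over all groups of a fit. Libraries that share a number were treated as independent in the main fits.

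Each library held 8.96 M to 35.5 M counted reads. Levels are CPM, read counts divided by the library's total and scaled within each of the 6 tables by TMM, and are compared within a gene only, since no transcript lengths were used. Changes are log2 fold changes from edgeR's quasi-likelihood test with their standard errors (SE), and a gene was called at a Benjamini-Hochberg adjusted p under 0.05 over all genes tested in that fit. AGO1 mRNA was at most 246 CPM under Ago1 RNAi and at least 427 CPM under GFP RNAi. In each of the 5 trigger lines the named gene was below its WT libraries (h, for example, at 155 to 163 CPM against 417 to 495). Some of these falls also occurred in other lines. The gene kah was at 122 to 203 CPM in its own line, 104 to 160 CPM in h and 222 to 239 CPM in WT libraries. For zfh1 the levels were 1250 to 2260 CPM in its own line, 685 to 2730 CPM in ago1 and 2870 to 3110 CPM in WT libraries. CR43432 RNA was at 161 to 182 CPM in mutants and 211 to 224 CPM in controls at 8-12 h and also lower at both later ages. Dora mRNA overlapped between dora and WT in the S2 clones without RNAi, at 104 to 132 against 121 to 132 CPM. In the RNAi set it was lower in every dora library than in any WT library of the same knockdown (81.6 to 108 against 133 to 136 CPM under GFP RNAi). In dora[B] embryos it was below both controls at each age (532 to 535 against 674 to 780 CPM at 8-12 h), and in dora[A] it was separate at 8-12 h (509 to 568 against 618 to 737 CPM) and overlapped at 16-20 h. Of 11 hemocyte markers, 6 to 8 reached 1 CPM in the S2 libraries. The transcription factor genes srp (263 to 535 CPM) and ush (260.0 to 622 CPM) were high, whereas the mature plasmatocyte markers NimC1 and He stayed under 1 CPM.

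All 10 genes lie on the major chromosome arms. In the dm6 assembly (RefSeq annotation, whole gene spans) br is at X:1575132-1664869, Kr-h1 at 2L:6082603-6096498 and Hr39 at 2L:21237250-21259675. EcR is at 2R:6087873-6169087 and Hr3 at 2R:10203995-10237348. On arm 3L are Eip74EF at 3L:17558672-17619325, Eip75B at 3L:17950953-18064696, ftz-f1 at 3L:18750607-18801309 and Eip78C at 3L:21226609-21266503, and Eip93F is at 3R:21949114-22014539. Counts were made per gene, so the isoforms of br, EcR and ftz-f1 are added together.

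The first question was how these genes run through WT embryogenesis, with 21 control libraries of the 3 embryo sets in one fit that carried the set as a term. The receptor gene was nearly level and its targets peaked at different ages. EcR stayed between 149 and 298 CPM, Hr3, Hr39, Eip75B and Kr-h1 had their highest medians at 8-12 h, Eip78C at 12-16 h, and ftz-f1, Eip74EF and br at 16-20 h. In whole embryos a change in the RNA of each cell cannot be told apart from a change in the number of cells that hold it.

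EcR, the receptor, was at 149 and 175 CPM at 0-2 h and at 160.0 and 241 CPM at 2-4 h. Its median was 260.0 CPM at 8-12 h (range 209 to 298, n = 6), 258 at 12-16 h (195 to 294, n = 6) and 218 at 16-20 h (192 to 247, n = 5). Neighbouring ages overlapped throughout and no step passed the test, the closest being 2-4 h to 8-12 h (0.43, SE 0.18, adjusted p = 0.0523). With the replicate number as a block that step passed (0.42, adjusted p = 0.0249), and so did the last one (-0.26, adjusted p = 0.0495). The first of these also passed without replicate 1 of the dora[B] controls at 8-12 h, replicate 2 of 2-4 h or replicate 1 of the CR43432 controls at 8-12 h (adjusted p from 0.0182 to 0.0476).

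Eip75B encodes a heme-binding nuclear receptor that blocks Hr3. It was at 33.3 and 42.2 CPM at 0-2 h, fell to 4.39 and 5.26 CPM at 2-4 h, and reached a median of 292 CPM (254 to 343) at 8-12 h. These 3 ages did not overlap. The fall was 2.96 on the log2 scale (change -2.96, SE 0.41, adjusted p = 1.34e-05), and the rise that followed was 6.13 (SE 0.45, adjusted p = 1.59e-09). At 12-16 h the median was 173 CPM (145 to 189.7), lower than at 8-12 h (-0.76, SE 0.20, adjusted p = 0.00323). The 5 libraries at 16-20 h spread from 114 to 363 CPM, overlapping 12-16 h, and that step was not called by edgeR (0.41, SE 0.21, adjusted p = 0.116). It was called by DESeq2 (0.55, adjusted p = 0.0305) and without the lowest library, replicate 1 of the dora[A] controls (0.58, adjusted p = 0.00772). Among the dora[A] controls alone the 8-12 h to 12-16 h step kept its size and was not called (-0.96, adjusted p = 0.149).

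Hr3, an orphan nuclear receptor that activates ftz-f1, and Hr39, a receptor closely related to ftz-f1, were both highest at 8-12 h. Hr3 was at 6.00 and 7.41 CPM at 0-2 h and at 0.642 and 2.78 CPM at 2-4 h. It then reached a median of 342 CPM (216 to 381) at 8-12 h and 250.1 CPM (208 to 324) at 12-16 h, ages that overlapped and did not differ in the test (-0.23, SE 0.19, adjusted p = 0.283). By 16-20 h it was down to 30.2 CPM (28.8 to 41.0), below every earlier library from 8 h on (-3.04, SE 0.22, adjusted p = 2.84e-09). Its rise from 2-4 h to 8-12 h was 7.45 (SE 0.45, adjusted p = 8.68e-11).

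Hr39 went down and up in alternation. Its libraries at 0-2 h held 97.5 and 110 CPM, those at 2-4 h 12.8 and 12.9 CPM, and the median at 8-12 h was 252 CPM (213 to 270.3). The median fell to 61.6 CPM (50.2 to 70.9) at 12-16 h and returned to 168 CPM (130.3 to 182) at 16-20 h. No pair of successive ages overlapped, and all 4 steps were called: -3.01 (SE 0.21, adjusted p = 8.85e-10), 4.28 (SE 0.21, adjusted p = 2.1e-12), -1.97 (SE 0.11, adjusted p = 3.27e-11) and 1.41 (SE 0.11, adjusted p = 7.33e-09).

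ftz-f1 encodes a maternal form, which is the partner of Ftz in segmentation, and a later form that gives cells competence to respond to the next hormone pulse. It was at 195 and 199.8 CPM at 0-2 h and at 188 and 292 CPM at 2-4 h, overlapping levels. At 8-12 h the median was down to 27.5 CPM (13.6 to 92.5), below all 4 younger libraries (-2.91, SE 0.53, adjusted p = 0.000162). At 12-16 h it was 925 CPM (552 to 1022), above every library of 8-12 h (4.73, SE 0.41, adjusted p = 4.25e-08), and at 16-20 h 1659 CPM (1205 to 2169). The last step passed the test (0.97, SE 0.37, adjusted p = 0.0374). It did not pass without any 1 of 7 of the 11 libraries involved (adjusted p from 0.0564 to 0.0871), nor among the dora[A] controls alone (0.74, adjusted p = 0.203) or the CR43432 controls alone (0.50, adjusted p = 0.46).

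The early genes br and Eip74EF climbed in 2 and 3 steps. br encodes a set of BTB zinc-finger proteins needed for metamorphosis. It was at 2.25 and 7.42 CPM at 0-2 h and at 4.97 and 5.25 CPM at 2-4 h, and rose to a median of 54.7 CPM (36.8 to 103) at 8-12 h (3.72, SE 0.40, adjusted p = 2.02e-07). A further rise brought it to 237 CPM (194 to 252) at 12-16 h (2.12, SE 0.21, adjusted p = 7.25e-08), and it overlapped that age at 16-20 h with 258 CPM (208 to 282; 0.14, SE 0.21, adjusted p = 0.61). Eip74EF, an ETS-domain factor, was at 1.27 to 2.14 CPM in the 4 libraries of 0-4 h. Its median was 16.3 CPM (11.6 to 21.1) at 8-12 h, 38.9 CPM (21.4 to 60.6) at 12-16 h and 489.8 CPM (406 to 635) at 16-20 h, with no overlap between these ages. The steps were 2.77 (SE 0.37, adjusted p = 2.45e-06), 1.34 (SE 0.18, adjusted p = 2.91e-06) and 3.63 (SE 0.20, adjusted p = 7.76e-11). Among the dora[B] controls alone the middle step was 1.32 (adjusted p = 0.0601).

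Eip78C, a nuclear receptor gene, was at 1.80 and 3.38 CPM at 0-2 h and at 0.642 and 0.894 CPM at 2-4 h, a fall from 65 to 15 reads in all (-1.73, SE 0.56, adjusted p = 0.019) that was not called without either 2-4 h library or without replicate 2 of 0-2 h (adjusted p up to 0.186). It rose to 28.9 CPM (19.8 to 71.1) at 8-12 h (5.80, SE 0.50, adjusted p = 6.28e-09) and to 83.7 CPM (74.8 to 102) at 12-16 h (1.36, SE 0.22, adjusted p = 1.64e-05). The second rise was 0.44 and not called among the CR43432 controls alone (adjusted p = 0.266), whose 8-12 h libraries were the highest of their age. At 16-20 h it was at 56.7 CPM (41.4 to 74.6), below every library of 12-16 h, with an adjusted p of 0.0506 for the step (-0.54, SE 0.22) and 0.0389 with the replicate block.

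Kr-h1 and Eip93F were low throughout. Kr-h1, a zinc-finger factor induced by juvenile hormone, was at 1.95 and 0.0824 CPM (26 reads and 1 read) at 0-2 h and at 1 and 2 reads at 2-4 h. The call of the 0-2 h to 2-4 h fall (-2.68, SE 1.03, adjusted p = 0.0456) therefore rests on 1 library: without it the value was 0.85 (adjusted p = 0.731). It was also lost without either 2-4 h library (adjusted p = 0.2 and 0.128) and with the replicate block (adjusted p = 0.0666). Its median of 11.7 CPM (6.68 to 16.1) at 8-12 h was above 2-4 h (adjusted p = 4.05e-06), and it fell to 4.10 CPM (2.98 to 6.00) at 12-16 h (-1.45, SE 0.37, adjusted p = 0.00184), a step not called among the dora[A] controls alone (adjusted p = 0.147) or the CR43432 controls alone (0.0823). Eip93F encodes a factor of autophagy and adult fate and was listed with 1 read in the 4 libraries of 0-4 h together. At 8-12 h it was at 5.65 CPM (2.60 to 10.0), above 2-4 h (adjusted p = 0.000416), and it overlapped itself at later ages, with 2.71 CPM (0.0594 to 6.11) at 12-16 h and 3.13 CPM (2.67 to 5.52) at 16-20 h.

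**Figure D1:**
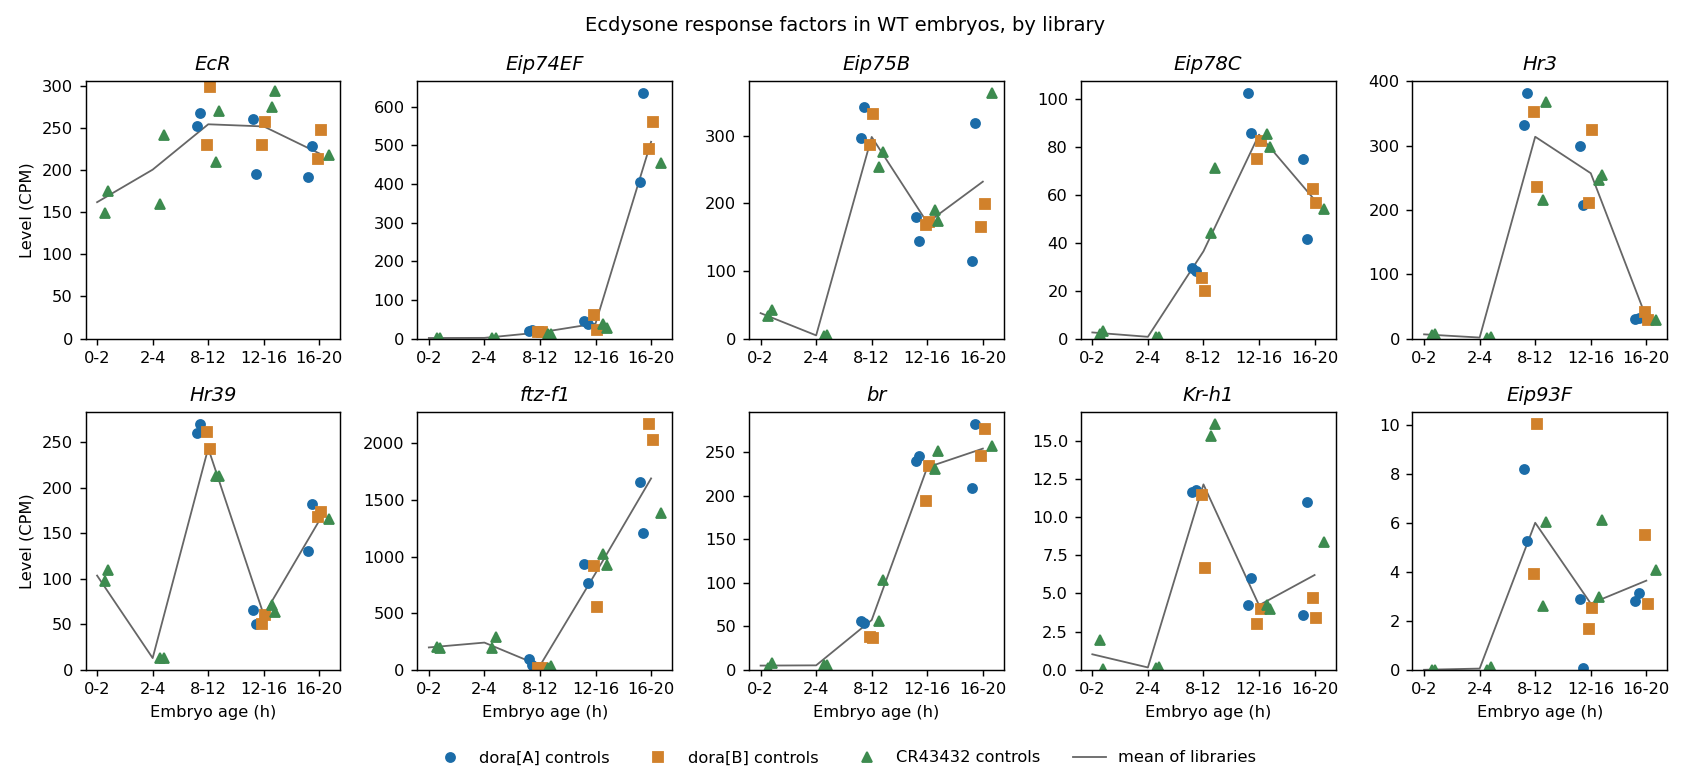
Level of each gene in CPM (linear axes from 0, 1 scale per panel) against embryo age in hours in the 21 WT embryo libraries, with symbols for the 3 control sets and a line through the mean of the libraries of an age. The mean lines of Hr3, Hr39, Eip75B and Kr-h1 peak at 8-12 h, while ftz-f1 (up to 2169 CPM) and Eip74EF (up to 635 CPM) end highest at 16-20 h.

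In counts, from 0-2 h to 2-4 h 5 of the 10 fell and none rose, where 39% of 11514 genes were called, 23.1% higher and 15.9% lower. From 2-4 h to 8-12 h 8 rose and 1 fell (background 60.5% called, 32.1% higher and 28.4% lower). The median over the 10 was 5.04 against 0.277 over all genes. From 8-12 h to 12-16 h 4 rose and 3 fell (background 66.5%, 35.9% higher and 30.6% lower). From 12-16 h to 16-20 h 3 rose and 1 fell (background 52.1%, 27.1% higher and 25% lower). Their shares called, 70% and 40%, are near the background in these last 2 steps. The ages of 0-4 h came from the CR43432 controls alone.

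Genes that make and break down the hormone, from a list of 10 of which 9 were in the tables, changed at the same steps. The background shares of these steps, given above, hold for this list and the 3 that follow, and no list was tested against them. From 0-2 h to 2-4 h 5 of the 9 rose, among them the synthesis gene spo (9.11 to 215 CPM; 4.55, SE 0.85, adjusted p = 0.000329) and the hydroxylase gene phtm (1.01 to 40.9 CPM; 5.32, SE 0.76, adjusted p = 1.19e-05). By 8-12 h 4 of the 9 had fallen and 3 had risen, with spo down to 0.626 CPM (-7.15, SE 0.92, adjusted p = 2.93e-06) and phtm to 1.13 CPM (-5.16, SE 0.57, adjusted p = 1.73e-07). From 8-12 h to 12-16 h shd, whose product makes the active hormone, fell from 13.3 to 0.401 CPM (-5.02, SE 0.69, adjusted p = 3.84e-06) and Cyp18a1, which inactivates ecdysone, rose from 10.7 to 96.8 CPM (3.19, SE 0.36, adjusted p = 6.36e-07), with 5 higher and 3 lower in all. From 12-16 h to 16-20 h 2 rose, among them shd (0.401 to 2.95 CPM; 2.84, SE 0.67, adjusted p = 0.00169), and 1 fell.

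Of 20 other genes of the ecdysone cascade, 4 rose and 7 fell from 0-2 h to 2-4 h, 14 rose and 1 fell from 2-4 h to 8-12 h, 9 rose and 5 fell by 12-16 h, and 2 rose and 12 fell by 16-20 h. The nuclear receptor gene Hr4 went from 21.7 CPM at 2-4 h to 891 CPM at 8-12 h (5.23, SE 0.30, adjusted p = 2.79e-11) and 1310 CPM at 12-16 h, then to 58.4 CPM at 16-20 h (-4.49, SE 0.19, adjusted p = 4.72e-12). ImpE1, first found as an ecdysone-induced gene of imaginal discs, was at 259 CPM at 8-12 h, 1550 CPM at 12-16 h and 45.1 CPM at 16-20 h (last step -5.08, SE 0.28, adjusted p = 2.4e-10). Blimp-1, a repressor of ftz-f1, fell from 310 CPM at 8-12 h to 8.92 CPM at 12-16 h (-5.10, SE 0.29, adjusted p = 1.58e-10 by edgeR). ftz-f1 rose at the same step, at which 66.5% of all genes were called, and a link between these genes was not tested.

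Of 10 genes for receptor partners, transport and cofactors, 1 rose and 3 fell from 0-2 h to 2-4 h, 4 rose and 3 fell by 8-12 h, 4 rose and 3 fell by 12-16 h, and 2 rose and 5 fell by 16-20 h. The partner usp fell from 137 to 38.6 CPM at the first step (-1.84, SE 0.25, adjusted p = 7.06e-06), and the ecdysone importer gene Oatp74D rose from 1.89 to 14.5 CPM (2.93, SE 0.38, adjusted p = 3.33e-06). Of 8 juvenile hormone genes, 2, 4, 5 and 6 rose and 4, 2, 1 and 1 fell at the successive steps. The receptor gene gce rose from 11.9 CPM at 8-12 h to 105 CPM at 12-16 h (3.20, SE 0.20, adjusted p = 1.16e-10).

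The profiles were also compared by the correlation of log2 CPM over the 21 WT embryo libraries, which share ages, collections and scaling, so the values describe likeness and carry no test. Within the 10 genes br and Eip78C were most alike (Pearson r = 0.946), followed by Eip75B and Kr-h1 (0.9), Eip75B and Eip78C (0.858) and Eip74EF and br (0.852). ftz-f1 was the odd one out: its closest partner was Eip74EF (0.605), and it was negatively related to Hr39 (-0.306) and Hr3 (-0.204). Among all genes, the 3 most like br were Strn-Mlck (0.996), futsch (0.996) and CG34417 (0.995), and those most like Eip74EF were jeb (0.992), CG11378 (0.991) and CG11961 (0.988). Dhit (0.977), CAH2 (0.963) and heca (0.962) were nearest to ftz-f1. Qsox2 (0.983), CG9674 (0.976) and Samuel (0.971) were nearest to Eip75B, and CG7966 (0.945), CG8034 (0.934) and cindr (0.913) to Hr39. The remaining nearest genes included Trl for EcR (0.864), CG15822 for Eip78C (0.985), l(1)G0320 for Hr3 (0.985), CG7272 for Kr-h1 (0.96) and eIF4G1 for Eip93F (0.939).

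The second question was whether embryos labelled with a dora allele differ from their WT controls in these genes, and here the 2 alleles gave different pictures. In dora[A], none of the 10 was called over the mean of the 3 times or at any single time. In dora[B] ftz-f1 stood far above its controls at 8-12 h and below them at 12-16 h, and Eip74EF was lower over the mean of the times.

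For dora[A] the background was as low: 0% of 11153 genes were called in the mean, 0.00897% (1 gene, lower) at 8-12 h and 0% at 12-16 h and 16-20 h. In the mean 727 genes, none of them of the 10, had an unadjusted p under 0.05 by edgeR, and DESeq2 also called none of the 10 in any of these comparisons. At 12-16 h 3 of the 10, and none at the other ages, had an unadjusted p under 0.05, all with both mutant libraries above both controls. Over all 11153 genes 520 had such a p by edgeR at 12-16 h. The share of all genes with such a separation was not counted. Hr3 measured 453 and 369 CPM in mutants, and 299 and 208 CPM in controls (0.75, SE 0.31, adjusted p = 0.846 by edgeR), Hr39 84.1 and 80.6 CPM, and 66.2 and 50.5 CPM (0.55, SE 0.22, adjusted p = 0.846), and EcR 329.9 and 291 CPM, and 260.2 and 195 CPM (0.50, SE 0.21, adjusted p = 0.846). The groups separated for these genes without passing the test over all genes. ftz-f1 overlapped at each time, with 60.5 and 149 CPM against 92.5 and 40.4 at 8-12 h, 914 and 529 against 931 and 765 at 12-16 h, and 2961 and 1364 against 1659 and 1205 at 16-20 h.

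In dora[B] embryos 1 of the 10 rose and 1 fell over the mean of the 3 times, where 42.5% of 11424 genes were called, 17.8% higher and 24.7% lower. The median over all genes was itself -0.382, and over the 10 it was -0.434. ftz-f1 was higher (0.49, SE 0.14, adjusted p = 0.0177), a mean of opposite changes at single times. Eip74EF was lower (-1.14, SE 0.36, adjusted p = 0.0297), with all dora[B] libraries below both controls of their time. Its call was lost without any 1 of 8 of the 12 libraries (adjusted p from 0.0512 to 0.0794) and with no filter on low counts (-0.97, adjusted p = 0.179). Without replicate 2 of dora[B] at 16-20 h 5 genes were called, with EcR (0.49), Eip75B (-0.78) and Hr39 (-0.64) added, and without replicate 2 of dora[B] at 8-12 h Kr-h1 was called (-1.72, adjusted p = 0.028).

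At 8-12 h ftz-f1 was at 172 and 186 CPM in the 2 dora[B] libraries and at 19.7 and 13.6 CPM in the 2 controls. The mutant libraries were thus above both controls and every other WT library of that age, and the difference was 3.41 (SE 0.27, adjusted p = 0.000142); 6.87% of genes were called at this time, nearly all of them higher (6.68%). No other gene of the 10 was called there. EcR measured 329.8 and 302 CPM in mutants, and 229 and 298 CPM in controls (0.25, SE 0.21, adjusted p = 0.55), and Hr39 172 and 149.7 CPM, and 261 and 242 CPM (-0.66, SE 0.39, adjusted p = 0.376).

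At 12-16 h the order was the reverse. ftz-f1 was at 309 and 297 CPM in dora[B] and at 921 and 552 CPM in controls (-1.52, SE 0.25, adjusted p = 0.00295), below every WT library of that age. br measured 166 and 101 CPM in mutants, and 194 and 234 CPM in controls (-0.93, SE 0.30, adjusted p = 0.0424). These 2 calls stand against a background of 24%, of which 12.7% were lower. The call of br was lost with the replicate number as a block (-0.91, adjusted p = 0.0558), with DESeq2 (-0.71, adjusted p = 0.0814) and without any 1 of the 4 libraries of this age (adjusted p from 0.106 to 0.592). That of ftz-f1 was lost without 3 of the 4 in turn (-1.03 to -1.44, adjusted p from 0.0633 to 0.137). Eip74EF measured 17.6 and 8.85 CPM in mutants, and 60.6 and 21.4 CPM in controls (-1.88, SE 0.63, adjusted p = 0.0584), and passed with DESeq2 (-1.64, adjusted p = 0.0146).

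The ftz-f1 effect changed between the 2 times by -4.93 (SE 0.37, adjusted p = 0.000155), in a contrast added after the single times were seen that called 2.04% of genes. Without replicate 1 of dora[B] at 12-16 h it was -4.43 (adjusted p = 0.0524), and without replicate 2 of the controls at 8-12 h it was -4.32 (adjusted p = 0.056). At 16-20 h ftz-f1 overlapped, with 2046 and 1688 CPM against 2169 and 2034 (-0.40, SE 0.25, adjusted p = 0.262).

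Some RNAs of the egg also differed between dora[B] and controls, and did so at every age. The maternal RNA bcd was at 88.2 to 201 CPM in all 6 dora[B] libraries and at 0.159 to 2.05 CPM in their 6 controls, and swa at 56.4 to 115 CPM against 0 to 1.26. In WT libraries of 0-4 h bcd was at 98.4 to 163 CPM and swa at 123 to 382 CPM. The marker osk was at 7.22 to 29.9 CPM in dora[B], 0 to 1.7 CPM in controls and 94.6 to 1300 CPM at 0-4 h. Levels of nanos overlapped (0.26 to 2.14 against 1.57 to 2.83 CPM), with 85.5 to 479 CPM at 0-4 h. So did those of pgc (0 to 1.11 against 0 to 1.02 CPM), with 34.3 to 166 CPM at 0-4 h. Those of gcl overlapped too (56 to 155 against 89.6 to 209 CPM), with 164 to 287 CPM at 0-4 h. Of 6 maternal markers, 4 to 6 reached 1 CPM in dora[B] and 2 to 4 in controls, with summed levels of 230 to 475 and 95.8 to 215 CPM, and 3 were called higher at each time, with 1 called lower at 12-16 h. The ratio of ftz-f1 to bcd was 1.42 and 1.59 in dora[B] at 8-12 h, within the 1.20 to 1.94 of the 4 WT libraries of 0-4 h, and 9.58 and 50 in their controls. Ratios this low also occurred at 8-12 h in 1 WT library of the CR43432 set (1.57), where ftz-f1 was at 35.4 CPM and bcd at 22.6 CPM, and in 1 dora[A] library (1.44). In dora[B] the ratio to bcd was 3.5 and 1.91 at 12-16 h and 10.2 and 18.5 at 16-20 h. The ratio of ftz-f1 to swa was 3.04 and 2.08 in dora[B] at 8-12 h and 26.4 and 50 in their controls. Both dora[B] values lay above the 0.524 to 1.64 of the 4 WT libraries of 0-4 h. The part of maternal RNA in the ftz-f1 results was not tested. In dora[A] bcd was at 0.467 to 42.0 CPM in mutants and 3.81 to 18.9 in controls.

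Markers of late tissues moved as well. At 12-16 h the summed level of 8 cuticle and tracheal matrix markers was 3140 to 4050 CPM in dora[B] and 7820 to 8030 CPM in controls, with 4 of 8 called lower, and that of 5 muscle markers 5160 to 8700 CPM against 13000 to 18000 CPM, with all 5 called lower. All 8 and all 5 reached 1 CPM in every library of both groups. The summed level of 6 neuron markers was 1280 to 2120 CPM against 2690 to 2700 CPM, with 4 of 6 called lower. Hemocyte markers summed to 1840 to 2510 CPM against 4410 to 5140 CPM (3 of 11 called lower) and fat body markers to 7480 to 10600 CPM against 13400 to 14800 CPM (1 of 2 tested called lower). At 8-12 h no marker of these 5 lists or of the amnioserosa was called, but some sums were separate. Neuron markers summed to 1440 to 1520 CPM in dora[B] and 2140 to 2240 CPM in controls, amnioserosa markers to 590.0 to 669 CPM against 970.0 to 986 CPM, and fat body markers to 5130 to 6160 CPM against 7640 to 9050 CPM. Cuticle and tracheal matrix markers were higher in the mutants, with sums of 925 to 982 CPM against 628 to 888 CPM. Blastoderm markers, from the early embryo, summed to 206 to 216 CPM in dora[B] and 291 to 305 CPM in controls at this age. The part of these tissues in the results for ftz-f1, Eip74EF and br was not tested. When the scaling left out 2648 genes whose mean level in WT embryos of 0-2 h was over 2 times that at 8-12 h, the median over all genes at 12-16 h moved from -0.43 to 0. ftz-f1 kept its calls (3.28, adjusted p = 0.000491 at 8-12 h and -1.08, adjusted p = 0.0176 at 12-16 h), whereas its value at 16-20 h turned from -0.40 to 0.19, not called in either case. br at 12-16 h (-0.51, adjusted p = 0.268) and the mean of Eip74EF (-0.87, adjusted p = 0.0568) lost theirs and EcR gained one (0.46, adjusted p = 0.0366).

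At 16-20 h none of the 10 was called in dora[B] by edgeR (background 15.6%) or by DESeq2. Hr39 and br had an unadjusted p under 0.05 by edgeR, as did 3938 genes in all. The 2 mutant libraries differed from each other. Replicate 1 held 28.3 CPM of Eip75B, 46.9 of Hr39 and 112 of Eip74EF, and replicate 2 held 153, 149 and 430.0 CPM. The controls held 166 and 199.7 CPM of Eip75B, 168 and 174 of Hr39 and 489.8 and 561 of Eip74EF. Replicate 1 was therefore low for these 3 genes and replicate 2 close to WT. With replicate 1 as the only mutant library, the changes were -2.45 for Eip75B, -1.62 for Hr39 and -1.98 for Eip74EF. These 3 genes were picked after the results were seen, and the values rest on 1 mutant library without a spread of its own. The same library, in genes picked after their values were seen, held 644 CPM of the cuticle gene TwdlM against 2380 CPM in replicate 2 and 2880 and 3360 CPM in controls, and 5460 CPM of the muscle gene Mhc against 11700 CPM in replicate 2 and 12800 and 13600 CPM in controls.

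**Figure D2:**
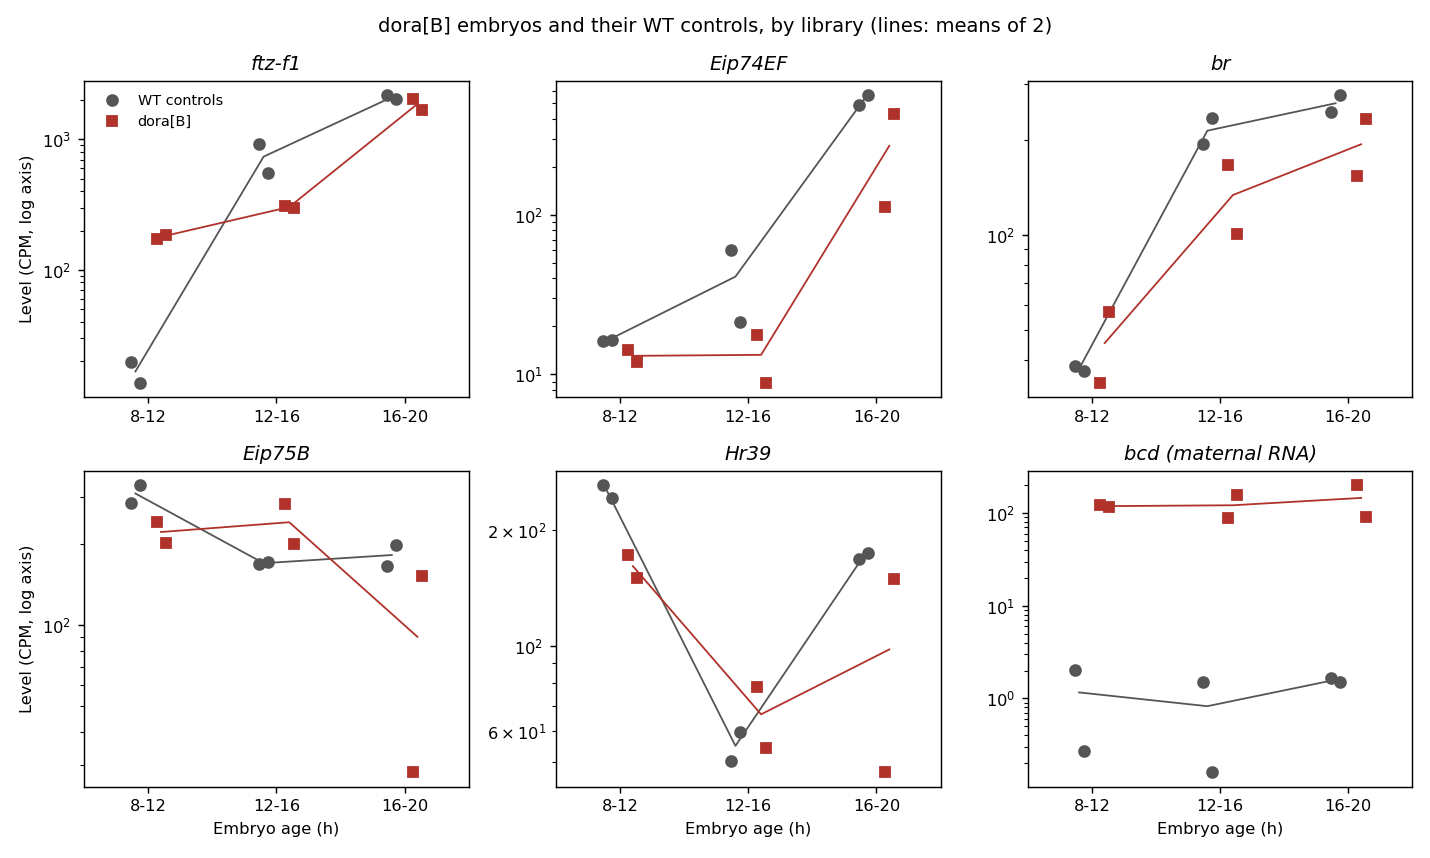
Levels in CPM (log axes) of 5 of the genes and of the maternal RNA bcd at 8-12 h, 12-16 h and 16-20 h in dora[B] embryos (red squares) and their WT controls (grey circles), 1 symbol per library, with lines through the means of 2. ftz-f1 lay above its controls at 8-12 h (172 and 186 against 19.7 and 13.6 CPM) and below them at 12-16 h, and bcd lay above its controls at every time.

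Among the other genes of the pathway in dora[B], the list of receptor partners and cofactors moved in both directions: 3 of 10 rose and 5 fell over the mean. The corepressor gene Smr rose (1.31, SE 0.15, adjusted p = 5.93e-05, 944 against 343 CPM), as did rig (1.95, SE 0.25, adjusted p = 0.000131) and the methyltransferase gene trr (0.90, SE 0.15, adjusted p = 0.00105). None of the synthesis genes rose and 3 of 8 tested fell, 2 of 20 cascade genes rose and 7 fell, and of the juvenile hormone list 5 of 8 fell. Over all genes 17.8% were called higher and 24.7% lower in this mean. At the single age of 12-16 h Blimp-1 of the cascade list, a repressor of ftz-f1, was higher in dora[B] (22.6 against 6.79 CPM, adjusted p = 0.00813 by edgeR). At that age 11.3% of all genes were called higher. The part of Blimp-1 in the level of ftz-f1 was not tested. Over the mean the medians of the lists were -0.55 for the partners, -0.62 for synthesis, -0.19 for the cascade and -0.71 for juvenile hormone, beside -0.382 over all genes.

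The third question was whether embryos labelled as CR43432 mutants differ. None of the 10 was called over the mean of 8-12 h and 12-16 h, where 0.0698% of 11457 genes were called, nor at 8-12 h (0.0436%), 12-16 h (0.0175%) or 16-20 h (0%). ftz-f1 and Eip74EF had an unadjusted p under 0.05 (0.70, SE 0.29, and 0.50, SE 0.22, both with an adjusted p of 1 by edgeR), and DESeq2 called none in any of the 4. At an unadjusted p under 0.05 were ftz-f1 alone at 8-12 h and Eip74EF alone at 12-16 h. Over all genes 385 had such a p by edgeR in the mean, 385 at 8-12 h and 400 at 12-16 h. ftz-f1 was at 38.2 and 64.7 CPM in mutants and 16.6 and 35.4 CPM in controls at 8-12 h, and at 944 and 1643 against 1022 and 929.5 CPM at 12-16 h. Eip74EF was at 13.7 and 15.2 CPM against 12.5 and 11.6, and at 37.0 and 74.7 CPM against 39.2 and 28.1. The first age was separate for both genes and the second overlapped. In the single pair of libraries at 16-20 h the levels lay close together, with 1496 and 1390 CPM of ftz-f1 and 541 and 455 CPM of Eip74EF in mutant and control.

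The levels of the same genes were also read in S2 cells. Over the 24 S2 libraries without Ago1 RNAi, Eip75B had a median of 163 CPM (130.4 to 196), ftz-f1 152 CPM (87.6 to 209.7), EcR 107 CPM (79.4 to 183) and Hr39 67.6 CPM (39.9 to 90.5). Eip74EF had 25.8 CPM (15.7 to 42.9), br 17.8 CPM (7.69 to 35.8) and Kr-h1 17.5 CPM (9.37 to 24.3). Hr3 (0 to 2.96 CPM) and Eip78C (0 to 1.48 CPM) were near the lower limit, and Eip93F had 2.28 CPM (0.836 to 11.6). These levels were scaled apart from those of embryos and were not tested against them.

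WT and dora clones were compared next. Of 9 genes tested (Eip78C was too low), 1 was called, Eip93F, where 2.73% of 7294 genes were called and 0.96% were higher. In the dora clones Eip93F measured 9.07, 6.66 and 11.6 CPM, and in the WT clones 2.21, 1.42 and 2.13 CPM, so each dora clone was above each WT clone. The change was 2.23 (SE 0.30, adjusted p = 0.0178). It was no longer called without any 1 of 5 of the 6 libraries (2.02 to 2.42, adjusted p from 0.0518 to 0.0726). The other 8 overlapped between the clones and none was called. EcR was at 171, 125 and 128 CPM in dora and 138, 183 and 129.8 CPM in WT clones (-0.08, SE 0.18, adjusted p = 0.812), and ftz-f1 at 198, 164 and 169.5 CPM against 159, 207 and 146 CPM (0.06, SE 0.15, adjusted p = 0.842).

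In the RNAi set the difference of Eip93F between genotypes was not seen. Under GFP RNAi it was at 2.83, 1.41 and 1.80 CPM in dora and 2.92, 0.836 and 1.33 CPM in WT cells (0.22, SE 0.52, adjusted p = 0.878). Under Ago1 RNAi it was at 1.12, 1.18 and 0.418 CPM in dora and 0.797, 1.17 and 0.645 CPM in WT cells (0.01, SE 0.59, adjusted p = 0.998). Both comparisons overlapped, and whether they differ from the clones without RNAi was not tested, since the sets differ in library kit and sequencing. None of the 9 genes tested was called between genotypes under GFP RNAi (background 1.18%, 0.916% lower) or Ago1 RNAi (0.356%), with none at an unadjusted p under 0.05 by edgeR and none called by DESeq2. The ecdysone importer gene Oatp74D was called in both sets without Ago1 RNAi: 20.8 to 28.3 CPM in dora and 96 to 111 CPM in WT clones, 3 libraries each (-2.15, SE 0.15, adjusted p = 0.00441), and 50.4, 58.2 and 48.8 CPM against 118, 152 and 103 CPM under GFP RNAi (-1.24, SE 0.15, adjusted p = 0.00175). It was the only gene called in the 4 pathway lists in these 2 comparisons.

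**Figure D3:**
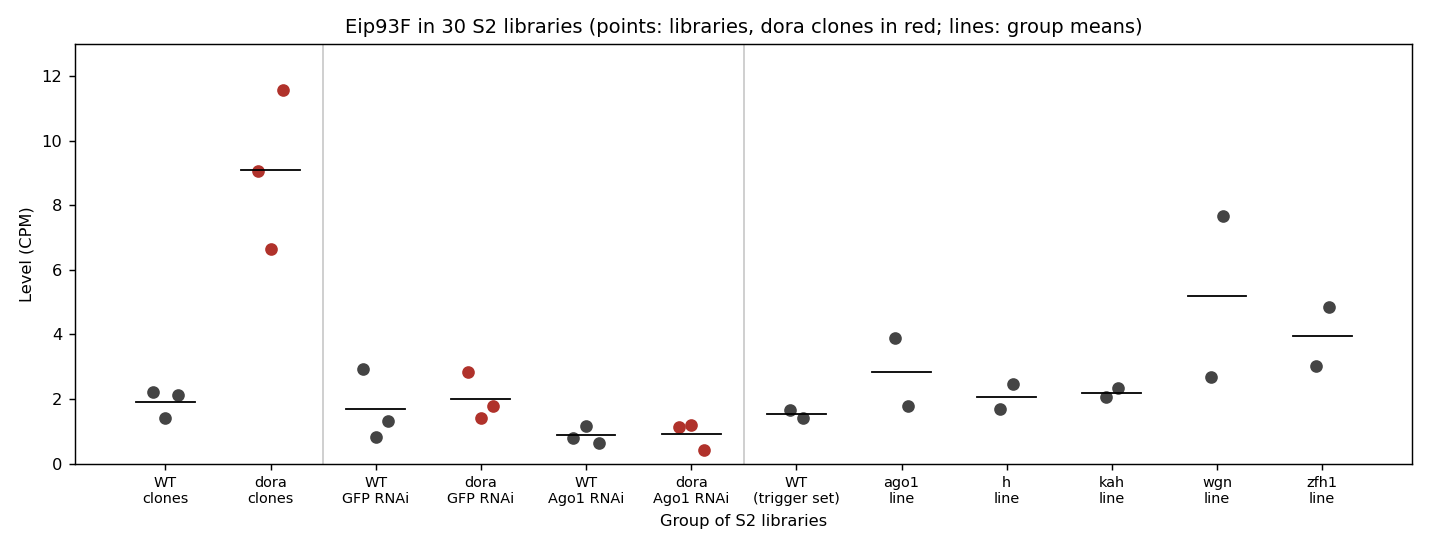
Level of Eip93F in CPM (linear axis from 0) in the 30 S2 libraries by group, 1 point per library with dora clones in red and a line at each group mean, with vertical lines between the 3 sets. The dora clones without RNAi have the highest group mean and lie at 6.66 to 11.6 CPM, a range that holds 1 wgn library at 7.68 CPM, and after RNAi both genotypes lie at 0.418 to 2.92 CPM.

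Knockdown of Ago1, the Argonaute protein that holds miRNAs in flies, asked which of these mRNAs change when miRNA repression is lowered. In WT cells 5 of 9 tested genes rose and none fell (Hr3 was too low), and the same 5 rose in dora cells: br, Eip74EF, EcR, Hr39 and ftz-f1. The knockdown called 54% of 7861 genes in WT cells, 25.6% higher and 28.4% lower, and 51.2% in dora cells, 24.6% higher and 26.7% lower. The share of the 9 called, 55.6%, is thus near the background share. The 5 called genes all rose, and the direction over the 9 as a set was not tested. The median over the 9 was 0.50 in WT and 0.41 in dora cells, against -0.02 and -0.01 over all genes.

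br changed most. It was at 35.8, 18.1 and 30.6 CPM under GFP RNAi and at 151, 77.8 and 116 CPM under Ago1 RNAi in WT cells (2.00, SE 0.28, adjusted p = 0.000179), and went from 25.9, 25.3 and 24.2 to 81.7, 109 and 73.5 CPM in dora cells (1.77, SE 0.28, adjusted p = 0.000439). The knockdown libraries were above all GFP libraries in both genotypes, and above the 7.69 to 35.8 CPM of all 24 S2 libraries without it. Eip74EF rose from 24.9, 20.8 and 21.3 to 50.0, 40.1 and 49.5 CPM in WT cells (1.03, SE 0.19, adjusted p = 0.000797) and from 19.5, 28.6 and 19.6 to 42.5, 63.6 and 43.8 CPM in dora cells (1.10, SE 0.19, adjusted p = 0.000588).

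The receptor gene EcR rose from 106, 93.5 and 88.5 to 170.1, 184 and 166 CPM in WT cells (0.82, SE 0.10, adjusted p = 3.83e-05) and from 84.8, 81.4 and 101 to 158, 141 and 159 CPM in dora cells (0.74, SE 0.10, adjusted p = 9.05e-05). Hr39 rose by 0.74 (SE 0.11, adjusted p = 0.000229) and 0.72 (SE 0.11, adjusted p = 0.000302), from 51.8 to 65.7 CPM over the 6 GFP libraries to 83.0 to 107 CPM. Neither gene overlapped between knockdowns. ftz-f1 rose least, from 126, 110.4 and 87.6 to 152, 147 and 166 CPM in WT cells (0.50, SE 0.13, adjusted p = 0.0056) and from 108, 96.9 and 117 to 134, 139.7 and 168 CPM in dora cells (0.41, SE 0.13, adjusted p = 0.0163). In dora cells its call was lost without replicate 2 of the GFP libraries (0.34, adjusted p = 0.0704) or replicate 3 of the Ago1 libraries (0.32, adjusted p = 0.0692).

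Eip75B overlapped between knockdowns and was not called. In WT cells it was at 179, 155 and 148 CPM under GFP RNAi and 153, 147 and 144 CPM under Ago1 RNAi (-0.15, SE 0.11, adjusted p = 0.272 by edgeR). Kr-h1 was at 16.3 to 16.6 CPM under GFP RNAi and 20.6 to 22.6 CPM under Ago1 RNAi in dora cells, ranges that were separate without passing the test (0.34, SE 0.19, adjusted p = 0.17). In WT cells it passed only without replicate 1 of the GFP libraries (0.56, adjusted p = 0.0273) or replicate 2 of the Ago1 libraries (0.53, adjusted p = 0.0261). Eip93F in dora cells was lower in each Ago1 library than in each GFP library (-1.23, SE 0.55, adjusted p = 0.0797), and it was called when the clone was a block (-1.26, adjusted p = 0.0446). Eip78C had under 1 CPM in every library of this set. In WT cells it was called lower by edgeR only without replicate 3 of the Ago1 libraries (-2.75, adjusted p = 0.0175). Of the 9 genes none passed the test of a difference between genotypes in the response to the knockdown (background 0.0763%, 0.0636% higher and 0.0127% lower; none at an unadjusted p under 0.05 by edgeR, and none by DESeq2), and br, for example, differed by less than its SE.

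**Figure D4:**
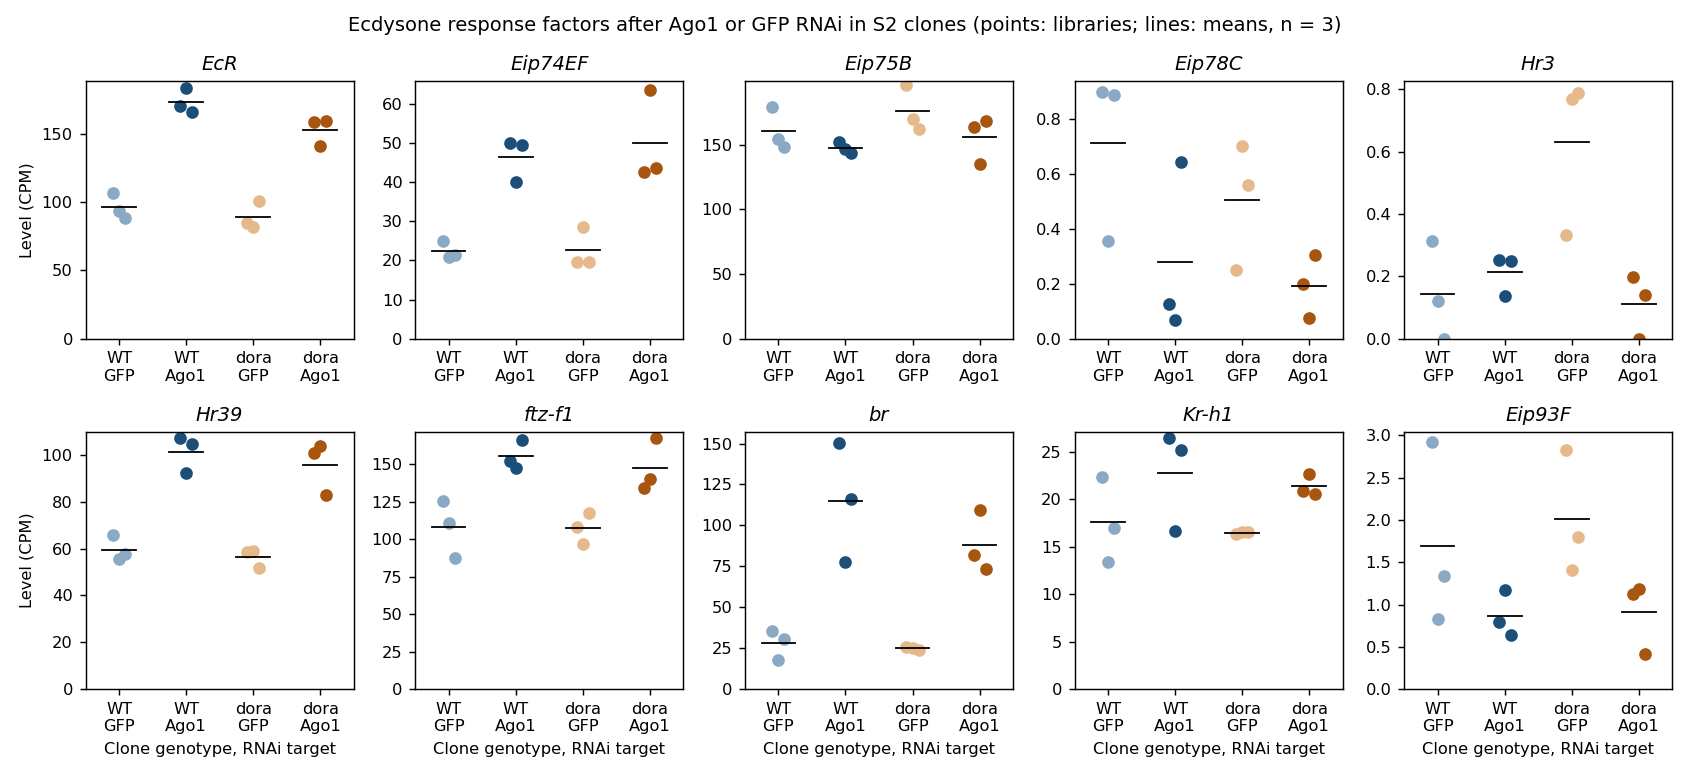
Levels in CPM (linear axes from 0, 1 scale per panel) after GFP or Ago1 RNAi in WT (blue) and dora (orange) S2 clones, 1 point per library and a line at the mean of 3. EcR, Eip74EF, Hr39, ftz-f1 and br are higher in every Ago1 library than in any GFP library of the same genotype, and Eip75B overlaps.

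Most genes for partners of the receptor rose as well. Of 7 genes tested for receptor partners, transport and cofactors, 6 rose in each genotype and none fell, where 25.6% of all genes rose in WT and 24.6% in dora cells. The median over the 7 was 0.50 in WT and 0.54 in dora cells, and over all genes -0.02 and -0.01. usp rose from 46.5 to 50.1 CPM to 76.3 to 83.1 CPM in WT cells (0.71, SE 0.08, adjusted p = 2.81e-05), the coactivator gene tai rose by 0.47 (SE 0.07, adjusted p = 0.000222) and trr by 0.44 (SE 0.07, adjusted p = 0.000455). In dora cells Oatp74D rose from 52.5 to 140 CPM (1.38, SE 0.15, adjusted p = 3.2e-05). Of 13 other cascade genes 3 rose in both genotypes, and 3 fell in WT and 2 in dora cells, with Hr78 higher (1.18, SE 0.09, adjusted p = 1.66e-06 in WT cells) and Cth lower (-2.21, SE 0.38, adjusted p = 0.000721). Of 6 juvenile hormone genes 1 rose and 2 fell in WT cells and 1 rose and 3 fell in dora cells, and of 2 synthesis genes none changed in WT cells and sro fell in dora cells (0.956 to 0.234 CPM; -2.21, SE 0.64, adjusted p = 0.0131). The shares of cascade and juvenile hormone genes that rose are near those of all genes, and nothing particular to these lists is read from them. The share of all genes that fell was 28.4% in WT cells and 26.7% in dora cells.

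Markers of other cells also differed between knockdowns. The summed level of 6 neuron markers was 163 to 265 CPM under Ago1 RNAi and 82.6 to 125 CPM under GFP RNAi, with 1 of 2 tested called higher in each genotype, and that of 6 amnioserosa markers was 40.6 to 92.7 CPM against 149 to 521 CPM. Maternal RNA markers summed to 41.3 to 51.3 CPM under Ago1 RNAi and 17.8 to 24.4 CPM under GFP RNAi over both genotypes, with both tested genes of 6 called higher in each. Summed hemocyte markers overlapped, with 2330 to 10300 CPM against 3080 to 28300 CPM. The part of these differences in the results for the 5 genes was not tested.

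In the lines labelled by a trigger transcript none of the 10 was called, in the lines ago1 (background 0.0128%), h (0%), kah (0%), wgn (0%) and zfh1 (0.0256%, each of 7813 genes). Unadjusted p was under 0.05 for 3 genes in ago1, 2 in zfh1, 1 in wgn and none in h or kah by edgeR, and DESeq2 called none. Over all 7813 genes such a p was found for 1234 in ago1, 799 in zfh1, 553 in wgn, 721 in h and 386 in kah. In the ago1 line Hr39 was at 39.9 and 61.5 CPM in place of 80.1 and 75.2 CPM in WT cells (-0.61, SE 0.20, adjusted p = 0.23). It was called with replicate 2 as the only library of that line, assumed to vary like the others (-0.96, adjusted p = 0.033). ftz-f1 was at 110.1 and 122 CPM there, and 164 and 176 CPM in WT cells (-0.55, SE 0.22, adjusted p = 0.278) and Eip75B at 130.4 and 147 CPM, and 167 and 167 CPM in WT cells (-0.27, SE 0.10, adjusted p = 0.245). All 3 were below WT in both libraries of the line. AGO1 mRNA was at 535 and 619 CPM in this line and 822 and 827 CPM in WT cells.

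Eip93F was at 2.68 and 7.68 CPM in wgn, 3.02 and 4.87 CPM in zfh1 and 1.67 and 1.42 CPM in WT cells (1.74, SE 0.59, adjusted p = 0.65, and 1.33, SE 0.59, adjusted p = 0.488). Both libraries lay above both WT libraries in these lines, as they did in ago1 (1.79 and 3.88 CPM), h (1.70 and 2.46 CPM) and kah (2.06 and 2.34 CPM), none of them called. All these lines share the same pair of WT libraries, so the separations are not independent. In the WT controls of the 3 S2 sets, each scaled apart, Eip93F ranged from 0.836 to 2.92 CPM. Hr3 was at 2.96 and 1.87 CPM in zfh1, and 0.557 and 0.251 CPM in WT cells (2.56, SE 0.69, adjusted p = 0.323). br spread within lines, with 35.7 and 11.1 CPM in h and 24.4 and 12.3 CPM in kah against 10.6 and 13.5 CPM in WT cells.

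**Figure D5:**
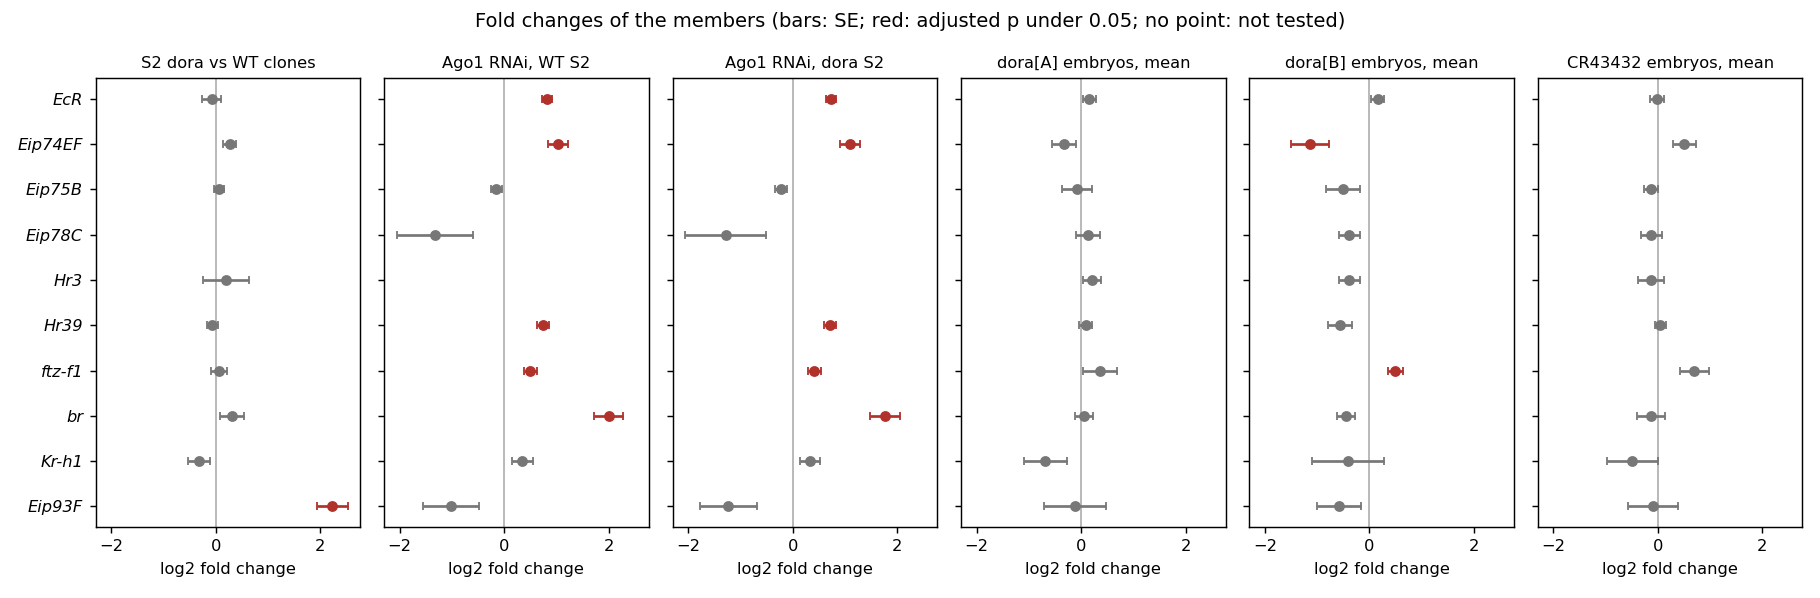
log2 fold change (horizontal axis, 1 scale for all panels) of each gene in 6 comparisons, with bars for SE, red for an adjusted p under 0.05 and no point where a gene was not tested. The panels for Ago1 RNAi hold the same 5 genes in red, S2 dora clones hold Eip93F alone, dora[B] holds ftz-f1 and Eip74EF, and dora[A] and CR43432 hold none.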

How the data were processed

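The deposited tables hold raw read counts per gene by the authors, 1 column per library; per the submitters' processing notes they involved genome build dm6, STAR 2.4 and HTSeq. The strand setting of the counting is not given in the sources used here. Poly(A) libraries were directional, per the labels' protocols. Rows that name no gene (6.02% to 20.5% of counts) were removed, and of 17477 genes 17226 matched a symbol. Small RNA tables were not used. The 10 genes, the pathway and marker lists (from general knowledge) and the comparisons were chosen with earlier results of these data known.

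Counts were fitted in R 4.3.3 with edgeR 4.0.16 (TMM, filterByExpr, robust quasi-likelihood), 1 coefficient per group, in 7 fits: the 6 tables, and the 21 WT embryo libraries with the table as a term. These gave 27 comparisons and 5 added ones (mutant effects between times). P-values were adjusted over all genes of each fit; SE is the change divided by the square root of F. SD and SE rest on 1 to 6 libraries per group. Alternatives were DESeq2 1.42.0, RLE scaling, no filter, the replicate number as a block, each control set alone, each library left out and, added after seeing the data, scaling without maternal genes. A value counts as reversed only where the sign differs and it passes in 1 of the 2 fits. All 10 genes are named in each comparison, of each list at most 3 called genes by adjusted p, and for likeness (log2 CPM, prior count 2) the 3 nearest genes. Markers count as detected from 1 CPM. 1 column of the wgn line was matched to its group only. Libraries of a group differed beyond sampling noise (chi-square per gene at least 15). Residuals of equally numbered libraries correlated at 0.52 to 0.69 between knockdowns of a clone. They correlated at -0.06 to 0.38 in embryos, where the series text pairs lines with controls. In S2 clones the values were -0.26 to 0.17, and in trigger lines -0.12 to 0.03. The main fits did not pair these libraries, and pairing entered only with the replicate number as a block. The scripts were tested on simulated data.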

Additional observations from a re-analysis of the deposited data

Results flagged for a closer look

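The dora[B] effect on ftz-f1 differed between 12-16 h and 8-12 h by -4.93 on the log2 scale (SE 0.37, adjusted p = 0.000155 by edgeR): it was 3.41 at 8-12 h and -1.52 at 12-16 h, with both mutant libraries above both controls at the first age and below them at the second. The value was -4.93 with the replicate number as a block and -4.35 with scaling that left out maternal genes.

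For br the 2 dora alleles lay on opposite sides of their controls at 12-16 h. In dora[A] it was at 254 and 246.3 CPM against 240.1 and 246.2 CPM in controls (0.09, SE 0.30), and in dora[B] at 166 and 101 CPM against 194 and 234 CPM (-0.93, SE 0.30). The difference between the alleles, 1.02, was not tested, and in dora[A] the gap between the nearest libraries was far smaller than the spread within groups.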

How the results depend on the processing

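Over 3324 values of single genes under alternatives, 3235 stayed on the same side of the threshold, 54 lost a call, 34 gained one and 1 was reversed: Kr-h1 from 0-2 h to 2-4 h without replicate 1 of 0-2 h (0.85, adjusted p = 0.731; without replicate 2 it was -3.58). Of the counts of genes called, that of dora[B] at 12-16 h (2) was 1 with RLE scaling, with no filter, with the replicate block and with scaling without maternal genes, and that of the dora[B] mean (2) was 1 with no filter. Apart from br (adjusted p = 0.0558), the replicate block ended the call of Kr-h1 at 0-2 h to 2-4 h (-2.54, adjusted p = 0.0666) and gained Eip93F in dora cells and, in WT embryos, EcR (0.42, adjusted p = 0.0249 for 2-4 h to 8-12 h; -0.26, adjusted p = 0.0495 for the last step) and Eip78C (-0.59, adjusted p = 0.0389 for the last step); it changed no other call. Leaving out single libraries gave 0 to 1 called in dora clones, 0 to 1 in the ago1 line, 1 to 5 in the dora[B] mean, 0 to 1 at 12-16 h, 0 to 3 at 16-20 h, 0 to 1 in its difference between 12-16 h and 8-12 h, 0 to 2 in that between 16-20 h and 12-16 h, and 3 to 5 from 0-2 h to 2-4 h. No library could be left out of the single CR43432 pair at 16-20 h. The cause was not tested. Low counts limit Eip93F, Kr-h1, Hr3 and Eip78C in S2 cells and at 0-4 h, and pairs of libraries limit every embryo comparison.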
